A study of Mus musculus with 4 samples.

Results

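The genes described here are the autophagy cargo receptors Sqstm1, Nbr1 and Bnip3, the LC3 and GABARAP family members Map1lc3a, Map1lc3b, Gabarap, Gabarapl1 and Gabarapl2, and the regulators Ulk1 and Tfeb. They were taken by symbol, and all 10 were found among the 24346 gene symbols of the tables. Expression was measured by RNA sequencing of whole liver from male ob/ob mice, an obese strain that lacks leptin. The mice were 6 weeks old at the start and ate 1 of 4 diets for 4 weeks: CD (chow), CD+7KC, WD (a high-fat Western type diet) and WD+7KC. The diets with 7KC contained 0.01% 7-ketocholesterol, an oxidized cholesterol, and every diet, the controls included, contained 1% cholesterol. Each group had 1 library, so a difference between groups cannot be set against variation between mice, and p-values are not given. The number of mice behind each library is not given in the sources used here, and because ob/ob mice lack leptin on every diet, no lean or leptin-sufficient liver was compared.

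Macroautophagy encloses cytoplasmic cargo in a double membrane, the autophagosome, which then fuses with the lysosome. Proteins of the LC3 and GABARAP family are joined to lipid on that membrane, and cargo receptors hold cargo to them through a short LC3-interacting motif. ULK1 is the kinase that starts autophagosome formation, and TFEB is the transcription factor that raises lysosomal and autophagy genes when it enters the nucleus. In liver the process breaks down proteins, mitochondria and lipid droplets, and it is active in fasting. The mRNA levels given here do not measure autophagic flux or lipidated LC3.

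The deposited values are FPKM, which divide a gene's fragments by its length and by the depth of the library, so levels of different genes can be set side by side per length. The depth estimated from the steps between low values was 9400000 to 12120000 fragments per library. The FPKM values summed to 715605 (CD), 696062 (CD+7KC), 699534 (WD) and 602059 (WD+7KC), and WD+7KC stands apart by its lower sum. Rescaling the libraries to equal sums (TPM) adds 0.22 to every log2 change between WD+7KC and WD, 0.21 between WD+7KC and CD+7KC, 0.040 between CD+7KC and CD, and 0.033 between WD and CD. The sign of a small change therefore depends on the scaling in the comparisons with WD+7KC. Both values are given for each member in WD+7KC relative to WD. Other changes are as deposited unless another scaling is named. Intervals are exact (Clopper-Pearson or Poisson) 95% intervals from estimated reads and cover counting error only, not the variation between mice. The liver identity of the libraries was checked with 8 hepatocyte markers, whose summed level was 54286 FPKM (CD), 45875 (CD+7KC), 55202 (WD) and 42916 (WD+7KC). The 14 macrophage and Kupffer cell markers summed to 236 FPKM (CD), 356 (CD+7KC), 413 (WD) and 777 (WD+7KC), and the 5 sinusoidal endothelial markers to 49.4, 73.6, 39.5 and 109 FPKM in the same order. None of these markers was at 0 in any library. In bulk liver, fewer cells of a type and less RNA per cell cannot be told apart.

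Sqstm1, Gabarapl1 and Gabarap were the most abundant members in every library, and Tfeb was the least abundant. Sqstm1 (chromosome 11, 50199366 to 50210827, GRCm38), which encodes the ubiquitin-binding receptor p62, was at 373 FPKM (CD), 280 (CD+7KC), 306 (WD) and 335 (WD+7KC). As deposited it was highest in CD, but after rescaling to equal sums it was highest in WD+7KC; CD+7KC was the lowest library on either scale. In each library it stood within the upper 2.37% of the genes above 0. Gabarapl1 (chromosome 6, 129533160 to 129542346) was at 361 FPKM (CD), 280 (CD+7KC), 322 (WD) and 241 (WD+7KC). Gabarap (chromosome 11, 69991143 to 69994951) was at 238 FPKM (CD), 236 (CD+7KC), 294 (WD) and 274 (WD+7KC). The order of these 3 genes was not the same in all libraries: Sqstm1 led in CD, CD+7KC and WD+7KC, and Gabarapl1 led in WD. The counting intervals of Sqstm1 and Gabarapl1 overlapped in CD, CD+7KC and WD, and so did those of Sqstm1 and Gabarap in WD; all other neighbours in the order were apart in every library.

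Bnip3 (chromosome 7, 138890836 to 138909519), which encodes a receptor on the outer mitochondrial membrane, was at 191 FPKM (CD), 152 (CD+7KC), 206 (WD) and 135 (WD+7KC). It followed these 3 genes in the order of each library, and both libraries with 7KC were below both libraries without it. Map1lc3b (chromosome 8, 121590361 to 121598760), which encodes LC3B, was at 97.3 FPKM (CD), 87.8 (CD+7KC), 125 (WD) and 106 (WD+7KC). Gabarapl2 (chromosome 8, 111940703 to 111953612), which encodes the protein also known as GATE-16, was at 114 FPKM (CD), 103 (CD+7KC), 104 (WD) and 91.2 (WD+7KC). These neighbours changed places with the diet: Gabarapl2 was above Map1lc3b in CD and CD+7KC and below it in WD and WD+7KC. Map1lc3a (chromosome 2, 155276297 to 155278073), which encodes LC3A, was at 58.8 FPKM (CD), 66.5 (CD+7KC), 74.0 (WD) and 62.5 (WD+7KC).

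The receptor Nbr1, the kinase Ulk1 and Tfeb made up the lower end. Nbr1 (chromosome 11, 101552149 to 101581951), a ubiquitin-binding receptor with a domain layout like that of p62, was at 38.4 FPKM (CD), 38.6 (CD+7KC), 38.9 (WD) and 40.9 (WD+7KC). As deposited this was the narrowest range of the 10 genes, with a highest value 1.07 times the lowest. After rescaling to equal sums the range of Nbr1 was 1.27, and those of Ulk1, Gabarapl2 and Gabarapl1 were narrower. Ulk1 (chromosome 5, 110784488 to 110810097) was at 16.6 FPKM (CD), 15.2 (CD+7KC), 15.2 (WD) and 14.0 (WD+7KC). Tfeb (chromosome 17, 47737030 to 47792419) was at 3.31 FPKM (CD), 3.72 (CD+7KC), 3.57 (WD) and 4.28 (WD+7KC), near the middle of the genes above 0. At least 70 reads were estimated for Tfeb in WD, the fewest of any member in any library, against at least 587 for every value of the other 9 genes. The highest value over the lowest was 1.52 for Bnip3, 1.49 for Gabarapl1 and 1.42 for Map1lc3b, the widest ranges with the deposited values. After rescaling to equal sums Tfeb had the widest range (1.54), followed by Map1lc3b (1.41) and Sqstm1 (1.38), while Bnip3 had 1.35.

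**Figure D1:**
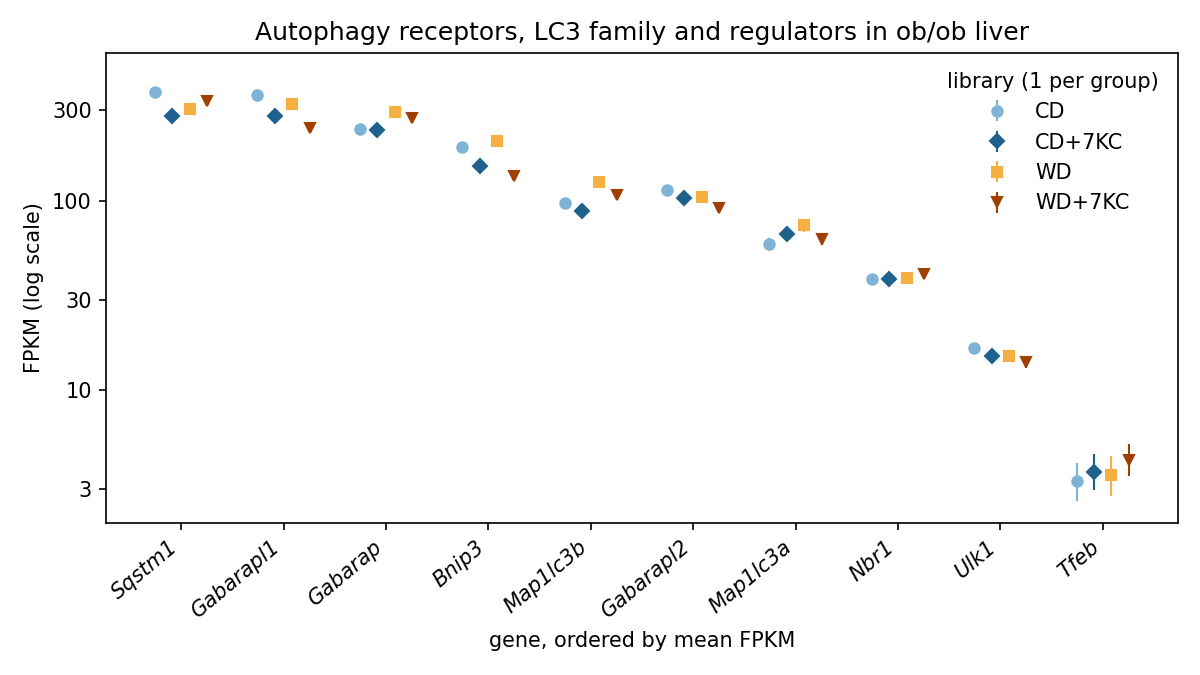
FPKM (log scale) of the 10 genes in the 4 libraries, 1 per group, ordered by mean FPKM, with bars for the 95% counting interval where it is wider than the symbol. Sqstm1 and Gabarapl1 reached 373 and 361 FPKM in CD, and Tfeb stayed between 3.31 and 4.28 FPKM.

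Within the LC3 and GABARAP family the shares of the members can be compared without regard to library scaling, since a scaling factor moves all members of a library alike. The family summed to 869 FPKM (CD), 774 (CD+7KC), 919 (WD) and 775 (WD+7KC). Gabarapl1 made up 41.5% (CD), 36.2% (CD+7KC), 35.0% (WD) and 31.1% (WD+7KC) of that sum. Gabarap made up 27.4% (CD), 30.5% (CD+7KC), 32.0% (WD) and 35.3% (WD+7KC). The share of Gabarapl1 was thus lower with 7KC than without it under each diet, and that of Gabarap higher. Divided by Gabarap, Gabarapl1 was at 1.51 (CD), 1.18 (CD+7KC), 1.09 (WD) and 0.881 (WD+7KC), so that Gabarap was the more abundant of the pair in WD+7KC alone. The LC3 genes held smaller shares, with Map1lc3b at 11.2% (CD), 11.3% (CD+7KC), 13.6% (WD) and 13.7% (WD+7KC). The ratio of Map1lc3b to Map1lc3a was 1.66 (CD), 1.32 (CD+7KC), 1.68 (WD) and 1.70 (WD+7KC). It was lowest in the CD+7KC library.

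**Figure D2:**
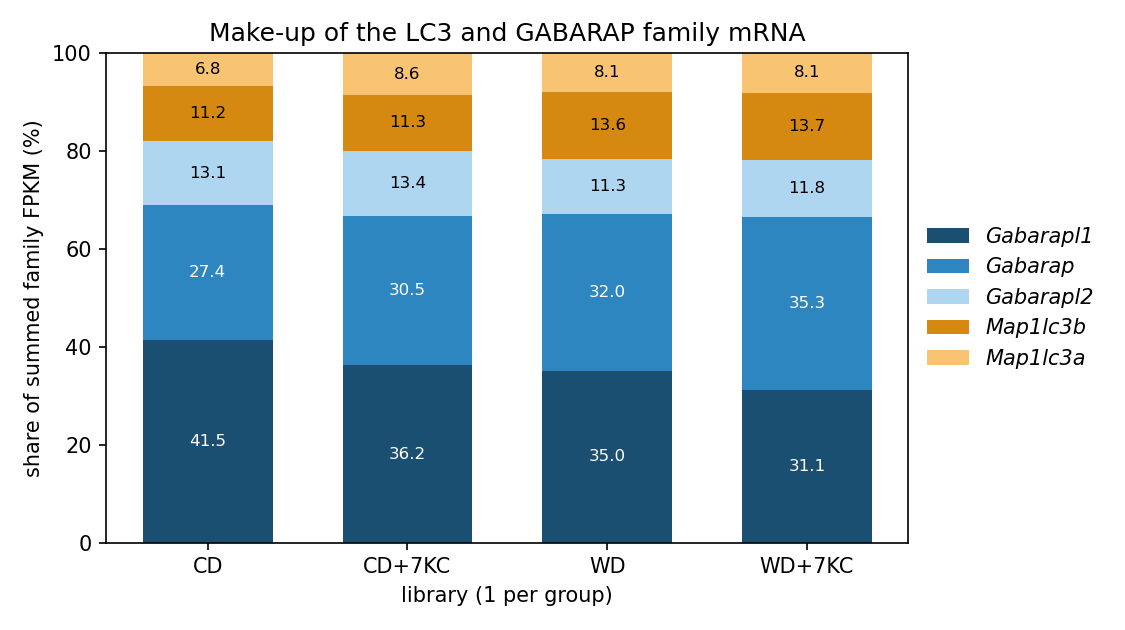
Share (%) of each LC3 and GABARAP family gene in the summed FPKM of the family, as stacked bars from 0 to 100 for the 4 libraries. Gabarapl1 went from 41.5% in CD to 31.1% in WD+7KC and Gabarap from 27.4% to 35.3%.

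The first comparison asked how these genes differed when 7KC was added to WD. No member passed a log2 ratio of 1 in either direction, while 9.0% of 15753 genes above 0 did. At 1.5-fold 1 of the 10 members passed, Bnip3, beside 6.07% of 4862 genes with at least 10 FPKM; after rescaling to equal sums, or relative to Alb, no member passed. With the deposited values 7 members lay below their WD level in WD+7KC and 3 above it, and the median log2 ratio was -0.15; of the 4862 genes, 70.3% were lower and the median was -0.11. After rescaling to equal sums 4 members were lower and 6 higher, with a median of 0.065, while 68.7% of those 4862 genes were higher and their median was 0.10. The counts and medians of the members therefore lay near those of the other expressed genes.

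Bnip3 went from 206 FPKM under WD to 135 once 7KC was added, a log2 ratio of -0.61 (interval -0.69 to -0.53), or -0.39 (-0.47 to -0.32) after rescaling. Of the 4862 genes with at least 10 FPKM, 2.55% were lower by as much or more. Gabarapl1, at 322 and 241 FPKM, had a log2 ratio of -0.42 (-0.47 to -0.36), or -0.20 (-0.26 to -0.14) after rescaling, and 8.35% of those genes were lower by as much or more. Bnip3 and Gabarapl1 were the members whose intervals lay below 0 under both scalings. Sqstm1 went the other way, from 306 to 335 FPKM, a log2 ratio of 0.13 (0.083 to 0.19), or 0.35 (0.30 to 0.40) after rescaling.

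The other 4 genes of the LC3 and GABARAP family were lower in WD+7KC with the deposited values, and none of them stayed lower with an interval below 0 after rescaling. The log2 ratio of Map1lc3a was -0.24 (-0.40 to -0.085), or -0.026 after rescaling. For Gabarapl2 it was -0.19 (-0.29 to -0.087), which turned to 0.026 after rescaling. For Gabarap it was -0.10 (-0.17 to -0.035), which turned to 0.11 (0.045 to 0.18) after rescaling. Map1lc3b, with -0.23 and -0.012 after rescaling, lay between them. Nbr1 had a log2 ratio of 0.070 (-0.026 to 0.17), or 0.29 (0.19 to 0.38) after rescaling. Ulk1 had one of -0.11 (-0.26 to 0.032), which turned to 0.10 (-0.042 to 0.25) after rescaling, so that a difference in Ulk1 was not detectable at this depth under either scaling. Tfeb had 0.26 (-0.17 to 0.73), or 0.47 (0.042 to 0.94) after rescaling.

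In the same pair of libraries the hepatocyte markers had a median log2 ratio of -0.54, with 8 of 8 lower (6 of 8 after rescaling), and the macrophage and Kupffer cell markers 0.91, with 14 of 14 higher. The albumin gene Alb had 35981 FPKM under WD against 30014 with 7KC. Relative to Alb, the log2 change was -0.35 for Bnip3, -0.15 for Gabarapl1 and 0.40 for Sqstm1, and between 0.019 and 0.16 for the other 4 family genes. The part of the cell type markers in these changes was not tested beyond this.

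**Figure D3:**
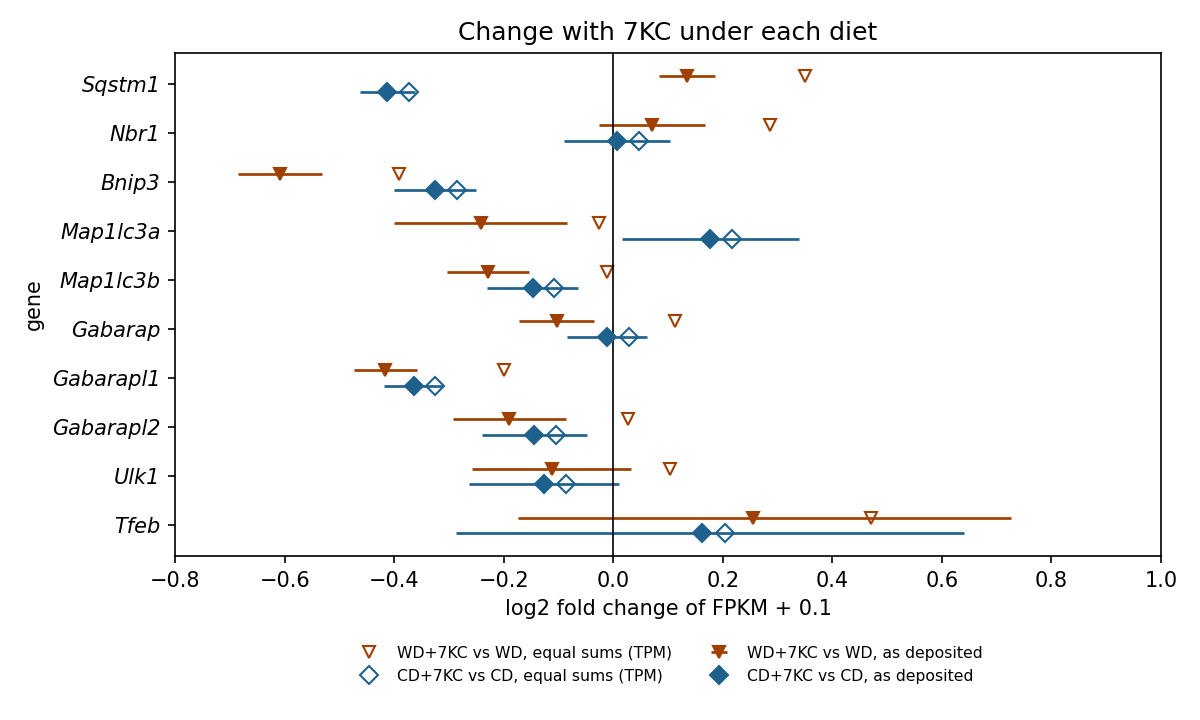
Log2 ratio of FPKM + 0.1 with 7KC for the 10 genes, under WD (triangles) and CD (diamonds), with bars for the 95% counting interval of the deposited values and open symbols for libraries rescaled to equal sums. Bnip3 and Gabarapl1 lie left of 0 under both diets and both scalings, and Sqstm1 lies at -0.41 under CD and 0.13 under WD.

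The second comparison asked the same question under CD, with libraries that the first did not use. No member passed a log2 ratio of 1, beside 6.75% of 15684 genes above 0, or a difference of 1.5-fold, beside 3.88% of 4846 genes with at least 10 FPKM. With 7KC 7 members were lower and 3 higher (median log2 ratio -0.14), while 54.3% of the 4846 genes were lower, with a median of -0.019. After rescaling 6 were lower and 4 higher, and the median was -0.095, while 54.4% of those genes were higher and their median was 0.021.

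Sqstm1 had the largest difference of the 10 genes here, from 373 FPKM to 280 with 7KC, a log2 ratio of -0.41 (-0.46 to -0.36), or -0.37 after rescaling. Gabarapl1 followed with -0.36 (-0.42 to -0.31), or -0.32 after rescaling, and Bnip3 with -0.33 (-0.40 to -0.25), or -0.29 after rescaling. Of the 4846 genes with at least 10 FPKM, 4.52% were lower by as much as Sqstm1 or more, 5.67% by as much as Gabarapl1 and 6.83% by as much as Bnip3. Map1lc3b had -0.15 (-0.23 to -0.064) and Gabarapl2 -0.14 (-0.24 to -0.048), both below 0 after rescaling as well. Map1lc3a was higher in CD+7KC, with 0.18 (0.015 to 0.34), or 0.22 after rescaling. For Gabarap, Nbr1, Ulk1 and Tfeb the interval included 0 under both scalings, with log2 ratios of -0.012, 0.0071, -0.13 and 0.16. Relative to Alb, which had 35084 FPKM under CD against 31205 with 7KC, the log2 change was -0.24 for Sqstm1, -0.20 for Gabarapl1 and -0.16 for Bnip3. The hepatocyte markers had a median log2 ratio of -0.20, with 6 of 8 lower, and the macrophage and Kupffer cell markers one of 0.63, with 13 of 14 higher; their part in the members' changes was not tested.

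Set side by side, 6 of the 10 genes (Bnip3, Gabarapl1, Map1lc3b, Gabarap, Gabarapl2 and Ulk1) were lower with 7KC under each diet with the deposited values. Of these, Bnip3 and Gabarapl1 alone were lower under each diet also after rescaling and relative to Alb. Sqstm1 and Map1lc3a had opposite signs under the diets. For Sqstm1 the log2 change in WD minus that in CD was 0.55 with a counting error of 0.036 (SE), and 0.72 after rescaling. For Map1lc3a this difference was -0.42 with a counting error of 0.11 (SE), and -0.24 after rescaling, where its change under WD was close to 0. With 1 library per group these differences between diets could not be tested against the variation between mice.

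Bnip3 and Gabarapl1 are known as genes that FOXO factors can induce, and Bnip3 also as a gene induced under hypoxia through HIF, which binds at an ACGTG core. Of the 10 genes, 9 had a promoter sequence in the RefSeq table used here (GRCm38.p6), with 12 annotated starts; Map1lc3a had none. The 250 bases before each start were searched on both strands for the HIF core ACGTG, the E-box CACGTG (which contains that core), the palindromic CLEAR element of TFEB targets (which contains that E-box), the FOXO core TAAACA and the NRF2 core TGACNNNGC. The HIF core was found for Bnip3, Gabarap, Gabarapl2 and Nbr1, and in 16.6% of 32851 promoters. The E-box was found for Bnip3 alone, and in 6.02% of all promoters. The FOXO core was found for Gabarapl1 alone, and in 12.0% of all promoters. Neither the CLEAR element (0.240% of all promoters) nor the NRF2 core (10.2%) was found for any of the 9 genes. The sequences of the pair that was lower with 7KC in each comparison are shown from 250 to 51 bases before the start, 5′ to 3′ on the strand of the gene. For Bnip3 this is chr7:138909557-138909756 on the minus strand, which overlaps no GENCODE exon, with the E-box in capitals. For Gabarapl1 it is chr6:129532942-129533141 on the plus strand, within the opposite-strand gene 1700101I11Rik, with the FOXO core in capitals.
Bnip3: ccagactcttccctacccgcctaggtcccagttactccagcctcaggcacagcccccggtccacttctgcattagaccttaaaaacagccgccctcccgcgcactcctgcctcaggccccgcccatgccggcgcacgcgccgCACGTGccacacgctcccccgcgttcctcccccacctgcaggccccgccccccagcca
Gabarapl1: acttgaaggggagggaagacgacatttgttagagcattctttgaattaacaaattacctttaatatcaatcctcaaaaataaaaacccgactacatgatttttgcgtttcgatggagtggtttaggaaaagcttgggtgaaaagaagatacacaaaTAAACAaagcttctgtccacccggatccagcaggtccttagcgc
The GC content of these 200 bases was 70.0% for Bnip3 and 39.5% for Gabarapl1. A match of these letters is not evidence that a factor was bound there.

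Genes listed for HIF and FOXO, which include Hif1a and FOXO factor genes themselves, are given here as values. Their part in the members' changes was not tested. The 11 hypoxia-inducible genes had a median log2 ratio with 7KC of 0.14 under WD (8 higher, 3 lower) and of -0.28 under CD (1 higher, 10 lower). After rescaling the medians were 0.36 (9 higher) and -0.24 (2 higher). Of genes with at least 10 FPKM, 29.7% were higher under WD and 45.7% under CD as deposited, and 68.7% and 54.4% after rescaling. Most of the hypoxia-inducible genes and of the FOXO genes given below lay under 10 FPKM, outside that reference. Over all genes above 0 the median was 0.0021 under WD and -0.0012 under CD as deposited, and 0.21 and 0.035 after rescaling. Pdk1, which encodes a kinase that inhibits pyruvate dehydrogenase, was at 25.6 FPKM (CD), 25.1 (CD+7KC), 19.3 (WD) and 15.8 (WD+7KC). Ankrd37, a HIF target, was at 2.86, 0.389, 1.06 and 2.24 FPKM in the same order, higher with 7KC under WD and lower under CD. These levels are low, and no counting interval was made for this gene. The 8 FOXO factors and targets had medians of 0.060 under WD (6 higher, 2 lower) and -0.064 under CD (4 higher, 4 lower). After rescaling these medians were 0.28 (8 higher) and -0.025 (4 higher). Foxo3 was at 4.63, 5.25, 3.69 and 3.42 FPKM and the sestrin gene Sesn1 at 3.96, 4.60, 3.57 and 4.88 FPKM.

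Sqstm1 is also a target of NRF2, the oxidative stress factor that p62 in turn can activate by binding its inhibitor KEAP1. The 9 genes of the NRF2 pathway had a median log2 ratio with 7KC of 0.15 under WD (6 higher, 3 lower) and of -0.14 under CD (3 higher, 6 lower). After rescaling, which adds the same constant to all genes, 9 of 9 were higher under WD and 3 of 9 under CD, beside 68.7% and 54.4% of genes with at least 10 FPKM. Hmox1, which encodes heme oxygenase 1, was at 42.4 FPKM (CD), 19.3 (CD+7KC), 19.9 (WD) and 33.1 (WD+7KC), highest in CD and lowest in CD+7KC. Its log2 ratio was 0.73 under WD and -1.13 under CD. Gclm, which encodes a subunit of the enzyme that makes the glutathione precursor, was at 89.4, 80.1, 79.9 and 69.7 FPKM, lower with 7KC under each diet with the deposited values but not under WD after rescaling.

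Over all 4 libraries, the genes whose pattern was nearest to that of Bnip3, the member with the widest range of deposited values, were Casp6, Aqp9, G0s2, Lsm5 and 2410006H16Rik out of 4671 genes whose mean reached 10 FPKM. Likeness was measured as the Euclidean distance of centred log2(FPKM + 0.1) values over 4 points, and it was between 0.072 and 0.092. Aqp9, the glycerol channel of hepatocytes, was at 178 FPKM (CD), 143 (CD+7KC), 183 (WD) and 128 (WD+7KC). G0s2, an inhibitor of the triglyceride lipase ATGL, was at 214, 160, 216 and 145 FPKM. These values are a description, since the genes were picked for their likeness to Bnip3.

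The third and the fourth comparisons asked how the members differed between the diets. The comparison of WD with CD shares its libraries with the first and second, so its values are not independent of them. No member passed a log2 ratio of 1 between WD and CD, beside 9.69% of 15597 genes above 0, or a difference of 1.5-fold, beside 11.4% of 4962 genes with at least 10 FPKM. In WD 6 members were higher and 4 lower (median log2 ratio 0.064), while 48.2% of the 4962 genes were lower, with a median of 0.014. Map1lc3b was higher in WD by 0.36 on the log2 scale (0.28 to 0.44), Map1lc3a by 0.33 (0.17 to 0.50) and Gabarap by 0.30 (0.23 to 0.38). The other family genes were lower in WD, Gabarapl1 with -0.16 (-0.22 to -0.11) and Gabarapl2 with -0.14 (-0.24 to -0.036). Of the receptors, Sqstm1 was lower with -0.29 (-0.34 to -0.24) and Bnip3 higher with 0.11 (0.039 to 0.18), and the intervals of Nbr1, Ulk1 and Tfeb included 0. None of these signs changed after rescaling.

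Between WD+7KC and CD+7KC, no member passed a log2 ratio of 1, beside 12.6% of 15898 genes above 0, or a difference of 1.5-fold, beside 17.2% of 4961 genes with at least 10 FPKM. Of the members 5 were higher under WD and 5 lower (median -0.0015), while 58.1% of the 4961 genes were lower; after rescaling 9 were higher, beside 65.8% of those genes, and 1, Gabarapl1, was lower with -0.0058. Map1lc3b was higher in WD+7KC by 0.28 (0.20 to 0.36), or 0.49 after rescaling, and Gabarap by 0.21 (0.14 to 0.28), or 0.42 after rescaling. Sqstm1 was higher as well, with 0.26 (0.21 to 0.31), or 0.47 after rescaling, and so had the opposite sign to the diet comparison without 7KC. Gabarapl2 with -0.18 and Bnip3 with -0.17 were lower with the deposited values and turned to 0.028 and 0.037 after rescaling to equal sums, but stayed lower relative to Alb (-0.13 and -0.12). Map1lc3b and Gabarap were thus the members higher in the WD library of each pair, with intervals above 0 under both scalings. The macrophage and Kupffer cell markers were higher in the WD library in both comparisons, with medians of 0.82 and 1.17, and the sinusoidal endothelial markers had medians of -0.22 and 0.67; their part was not tested.

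**Figure D4:**
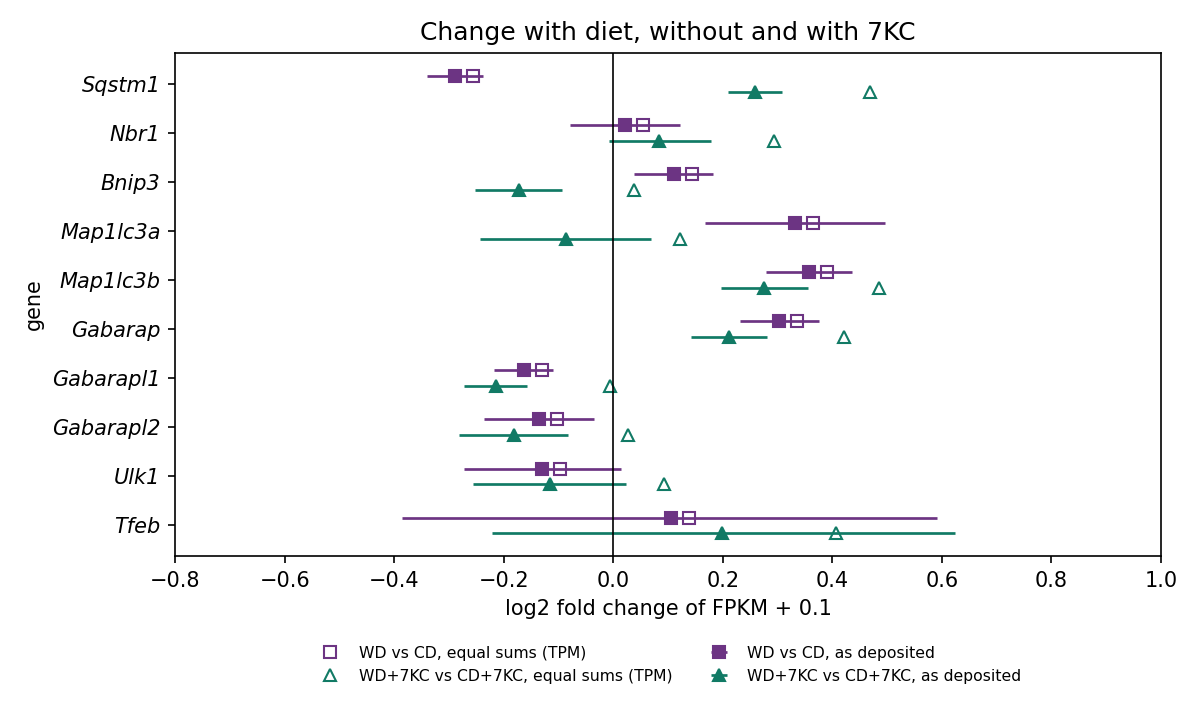
Log2 ratio of FPKM + 0.1 between the diets for the 10 genes, WD relative to CD (squares) and WD+7KC relative to CD+7KC (triangles), with bars for the 95% counting interval and open symbols for libraries rescaled to equal sums. Map1lc3b and Gabarap lie right of 0 in both comparisons, and Sqstm1 lies at -0.29 without 7KC and 0.26 with it.

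The rest of the autophagy machinery was described with lists that leave out the ATG genes, apart from Atg101 among the partners of ULK1. Of 15 other autophagy receptors, 12 were lower with 7KC and 3 higher under WD (median -0.17), beside 70.3% of genes with at least 10 FPKM lower, and after rescaling 12 were higher, beside 68.7% of those genes. Under CD 13 of the 15 were lower with 7KC (median -0.083), beside 54.3% of such genes. After rescaling 11 were lower and 4 higher, while 54.4% of such genes were higher. Bnip3l, the closest relative of Bnip3, was at 38.1 FPKM (CD), 36.5 (CD+7KC), 34.4 (WD) and 27.4 (WD+7KC), and the ratio of Bnip3 to Bnip3l was 5.0, 4.17, 5.99 and 4.93. Wdfy3, a large adaptor for protein aggregates, was at 4.79, 4.51, 3.86 and 5.50 FPKM.

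The 12 partners and upstream kinases of ULK1 had a median log2 ratio of -0.060 under WD (4 higher, 8 lower) and of -0.065 under CD (5 higher, 7 lower). After rescaling 10 were higher under WD, beside 68.7% of genes with at least 10 FPKM. The AMPK subunit genes Prkaa1 and Prkab1 marked the ends of this list under WD, with 2.27 and 3.44 FPKM for Prkaa1 and 14.1 and 11.0 FPKM for Prkab1 in WD and WD+7KC. The 8 genes of the class III PI3 kinase and Rubicon had medians of 0.078 under WD (5 higher, 3 lower) and 0.029 under CD (5 higher, 3 lower). After rescaling these medians were 0.29 (8 higher) and 0.068 (5 higher). Over all genes above 0 the medians were 0.0021 and -0.0012 as deposited, and 0.21 and 0.035 after rescaling. Of genes with at least 10 FPKM, 29.7% were higher under WD as deposited and 68.7% after rescaling. Under CD these shares were 45.7% and 54.4%. Rubcn, listed as 1700021K19Rik, encodes Rubicon, an inhibitor of autophagosome maturation, and was at 2.74 FPKM (CD), 3.37 (CD+7KC), 3.44 (WD) and 3.96 (WD+7KC). It was higher with 7KC under each diet, by 0.20 under WD and 0.29 under CD on the log2 scale. No counting interval was made for Rubcn at these low levels, so neither rise was set against counting error. Rubcn was named because its rise under WD was the largest of this list among genes whose mean reached 1 FPKM. Nrbf2, a subunit that promotes the activity of the same kinase, was at 23.1, 17.2, 19.2 and 17.6 FPKM.

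Tfeb belongs to the MiT/TFE factors, which RAG GTPases and folliculin hold at the lysosome. The 9 genes of this family and its control had medians of -0.0077 under WD (4 higher, 5 lower) and -0.048 under CD (3 higher, 6 lower). After rescaling these medians were 0.21 (7 higher) and -0.0086 (3 higher), beside 0.21 and 0.035 over all genes above 0. Of genes with at least 10 FPKM, 68.7% were then higher under WD and 54.4% under CD. With the deposited values 1 gene of this list passed a log2 ratio of 1 with 7KC, under WD. That gene was Tfec, a family member known from macrophages, at 0.923 FPKM (CD), 1.26 (CD+7KC), 0.805 (WD) and 2.87 (WD+7KC), beside Tfeb itself at 3.57 and 4.28 FPKM in WD and WD+7KC. Rragd, which encodes a RAG GTPase, was at 0.412 FPKM (CD), 0.317 (CD+7KC), 2.13 (WD) and 1.69 (WD+7KC). Its log2 ratio between the diets was 2.13 without 7KC and 2.10 with it. With 7KC it was lower by less, with -0.32 under WD and -0.30 under CD. No counting interval was made for Rragd at these low levels. The 14 listed TFEB target genes, most of them of the lysosome, had a median log2 ratio with 7KC of 0.12 under WD. There 8 were higher and 6 lower, beside 29.7% of genes with at least 10 FPKM higher. After rescaling 13 were higher, beside 68.7% of such genes. Under CD the median was 0.080, with 9 higher and 5 lower, beside 45.7% of such genes higher. Between WD and CD the median of the list was 0.27, with 11 higher and 3 lower, beside 51.7% of such genes higher. Wipi1, a phosphoinositide-binding protein of the forming autophagosome, had the lowest log2 ratio of that list under WD (-0.55), and was at 10.5 FPKM (CD), 7.29 (CD+7KC), 9.89 (WD) and 6.72 (WD+7KC). Gla, the lysosomal α-galactosidase gene, was at 1.76, 1.41, 2.39 and 3.57 FPKM.

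**Figure D5:**
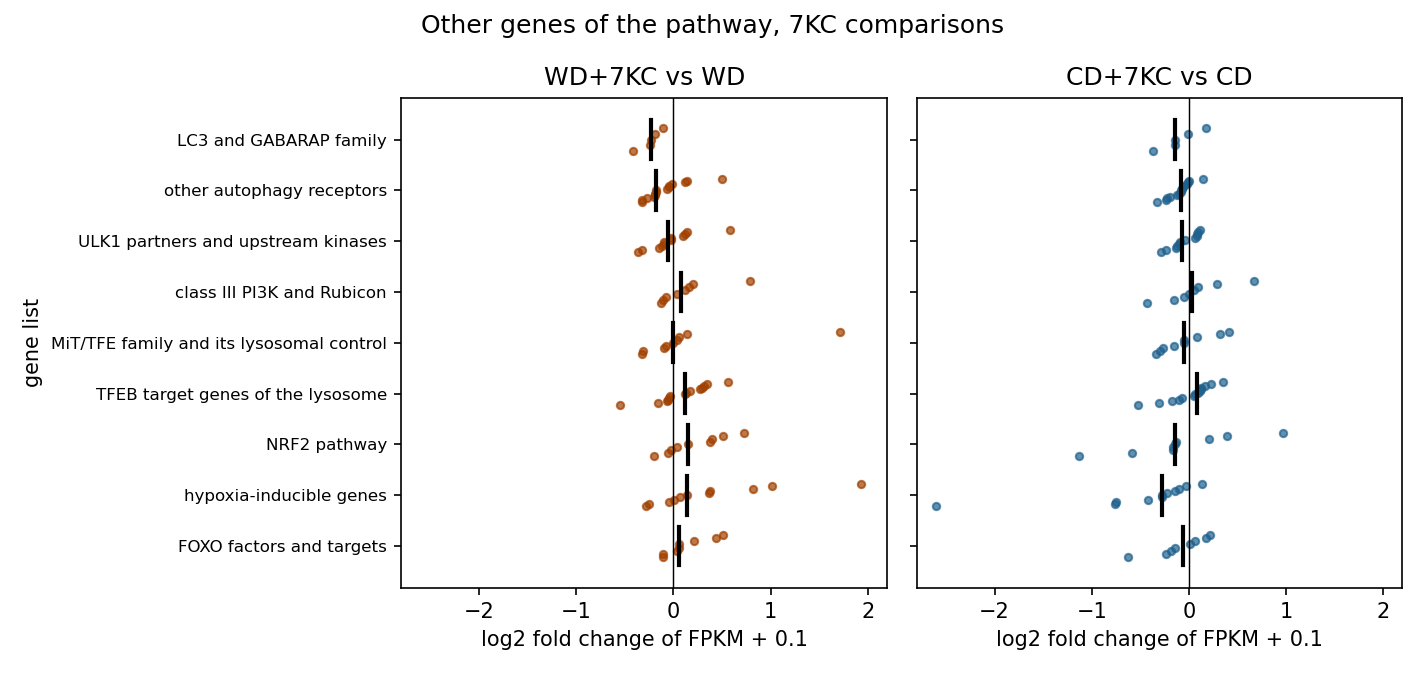
Log2 ratio of FPKM + 0.1 with 7KC for the LC3 and GABARAP family and for 8 lists of other pathway genes, under WD (left) and CD (right), with 1 point per gene and a black bar at the median of each list. The medians of the lists lie between -0.23 and 0.15 under WD and between -0.28 and 0.080 under CD, with Tfec at 1.71 under WD and Ankrd37 at -2.60 under CD. Both of these genes were low, with Tfec at 0.805 FPKM in WD and Ankrd37 at 0.389 FPKM in CD+7KC.

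Exons of some members overlap exons of genes on the opposite strand, and the strand setting of the quantification is not given in the sources used here. The overlap was 580 bases for Sqstm1 with Mrnip, 504 for Bnip3 with Gm45507, 570 for Gabarapl1 with 1700101I11Rik and 58 for Map1lc3b with Zcchc14. Mrnip, listed as 3010026O09Rik, was at 7.82 to 12.4 FPKM over the 4 libraries, 1700101I11Rik at 0.152 to 0.302 FPKM and Zcchc14 at 4.18 to 5.75 FPKM. No value of Gm45507 was used here, so its level beside Bnip3 was not checked. Reads of Gabarapl2 could be shared with its annotated pseudogene Gabarapl2-ps, which makes its level less certain.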

How the data were processed

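Liver RNA of male ob/ob mice was sequenced in 4 groups with 1 library each. The authors prepared stranded mRNA libraries, read 75 bases single-end, mapped reads to mm10 (GRCm38) with TopHat2 2.0.13, Bowtie2 2.2.3 and SAMtools 0.1.19, and deposited FPKM values per gene symbol from Cufflinks 2.2.1. The annotation, the strand setting and the mice per library are not given in the sources used here. Groups were taken from the sample labels.

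Changes were the log2 ratio of FPKM + 0.1 for genes not at 0 in both libraries. This scale understates changes of low genes. A log2 ratio of 1 or a 1.5-fold difference was counted, the latter among genes of at least 10 FPKM. Without replicates no test was made.

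Depth was estimated over 13861 genes with a single RefSeq mRNA, as the number of fragments for which FPKM × (length − 200 bases) fell nearest to whole reads; 71.4% to 73.2% of low values lay within 0.1 of a whole number. Reads of a member used its shortest RefSeq-linked transcript of GENCODE vM21, which widens the interval. On simulated data for WD+7KC relative to WD (13861 genes), all 200 changed genes had the right direction and 94.5% of their intervals held the true change. The simulated reads followed the same counting model and length term, so this checks the computation and not whether that model holds for these libraries.

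The members and lists were chosen with earlier results of these data known. Named were the 10 members, the largest rise and fall in WD+7KC relative to WD of each pathway list among genes whose mean reached 1 FPKM, and the 5 genes nearest to the member of widest range. Rubcn and Mrnip were matched through RefSeq synonyms. Alternatives were pseudocounts of 1 and 0.01, a filter of 1 FPKM, TPM, median-ratio scaling and, chosen after the values were seen, scaling to equal Alb. Python 3.11.15, numpy 2.4.6, pandas 2.3.3, scipy 1.17.1 and matplotlib 3.10.9 were used.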

Additional observations from a re-analysis of the deposited data

Results flagged for a closer look

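The change of Sqstm1 with 7KC had opposite signs under the diets, with counting intervals away from 0 in each: -0.41 under CD and 0.13 under WD, a difference of 0.55 on the log2 scale. Map1lc3a had 0.18 under CD and -0.24 under WD, a difference of -0.42, but its change under WD was -0.026 after rescaling to equal sums. Neither difference was tested, because each group had 1 library.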

How the results depend on the processing

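Each library is 1 sample, so nothing could be left out, and no paired analysis was possible because each group has 1 sample. Under median-ratio scaling all 126 results kept their direction and no count moved by over 1.5 times. The share of genes past the threshold depends on low values, which the members, Tfeb apart, do not have: for WD+7KC relative to WD the count was 1418, and 189 with a pseudocount of 1, 2830 with 0.01, 521 among genes of at least 1 FPKM and 3310 at 1.5-fold, where 1 member passed. For CD+7KC relative to CD the count was 1059, and 113, 2380, 287 and 2742 in that order; for WD relative to CD it was 1511, and 287, 2929, 602 and 3778; for WD+7KC relative to CD+7KC it was 2007, and 541, 3582, 1043 and 4597. Rescaling to equal sums left 4 members lower in WD+7KC than in WD (median 0.065) and 1 lower in WD+7KC than in CD+7KC (median 0.21). By the added constant it turned Gabarap to 0.11, Gabarapl2 to 0.026 and Ulk1 to 0.10 in the former comparison. In the latter it turned Bnip3 to 0.037, Gabarapl2 to 0.028, Map1lc3a to 0.12 and Ulk1 to 0.092. In CD+7KC relative to CD it turned Gabarap to 0.028. The 7KC change in WD minus that in CD changed sign for some members on rescaling to equal sums. It went from -0.081 to 0.096 for Map1lc3b and from -0.091 to 0.085 for Gabarap. For Gabarapl1 it went from -0.051 to 0.13 and for Gabarapl2 from -0.045 to 0.13. The sign stayed for Sqstm1 (0.55 to 0.72), Nbr1 (0.063 to 0.24) and Bnip3 (-0.28 to -0.11). Scaling to equal Alb was added after seeing the values. In WD+7KC relative to WD it turned Map1lc3a to 0.019, Map1lc3b to 0.033, Gabarap to 0.16, Gabarapl2 to 0.071 and Ulk1 to 0.15. In CD+7KC relative to CD it turned Map1lc3b to 0.022, Gabarapl2 to 0.024, Gabarap to 0.16 and Ulk1 to 0.042. In WD relative to CD it turned Nbr1 to -0.015. Depth limits Tfeb most, with an interval from -0.17 to 0.73 under WD.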

Other observations

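Markers of other cell types, which the account above does not use, varied between the libraries as follows. The 5 stellate cell markers summed to 156 FPKM (CD), 130 (CD+7KC), 166 (WD) and 158 (WD+7KC). The 4 cholangiocyte markers summed to 3.78, 2.72, 2.42 and 2.87 FPKM, and the 5 lymphocyte markers to 1.15, 2.53, 3.53 and 2.08 FPKM, in the same order. Of 3 neutrophil markers 2 were listed, with sums of 20.2, 16.9, 12.7 and 18.7 FPKM. Of 3 adipocyte markers, Fabp4, which macrophages and endothelium also express, gave nearly the whole sum of 83.6, 66.6, 104 and 143 FPKM, while Plin1 was listed at 0 in all 4 libraries and Adipoq in WD and WD+7KC.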
